A study of Mus musculus with 18 samples.

Results

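Ifitm1, Ifitm2 and Ifitm3, the 3 interferon-induced transmembrane genes known as early germ cell markers in the mouse, were followed through the route from epiblast-like cells to germ cell-like cells in culture. They were taken by symbol from the deposited expression table and make up 3 of its 25909 genes. The libraries came from Esrrb KO and WT derivatives of the mouse embryonic stem cell line SGET (strain B6CBA/129), in which KO and WT cells alike carry a Stella (Dppa3) reporter and an Esg1 (Dppa5a) reporter. Esrrb encodes an orphan nuclear receptor of naive pluripotency. Epiblast-like cells (EpiLC) were made with activin A at 20 ng/ml and bFGF at 12.5 ng/ml and were unsorted. Primordial germ cell-like cells (PGCLC) were made from them with BMP4 at 500 ng/ml, LIF at 1000 U/ml, SCF at 100 ng/ml, BMP8a at 500 ng/ml and EGF at 50 ng/ml, and were sorted by FACS for the Stella reporter and a low Esg1 reporter after 3 or 5 days. Each of the 6 groups (KO and WT at EpiLC, PGCLC day 3 and PGCLC day 5) held 3 libraries. The KO libraries of a group came from 3 lines, A5, B1 and A2. The WT libraries carry numbers only, and no label says that they were separate cultures, so their spread may be technical. Between pairs of libraries in a group, chi-square per degree of freedom of the counts was 1.11 to 1.80 in WT. In KO it was 3.88 to 33.6. The main fit shares the spread of each gene over all 6 groups. Its p-values therefore do not measure the spread of the compared libraries alone.

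The proteins of this family are small membrane proteins that restrict the entry of enveloped viruses at the cell surface and in endosomes, and their genes are classical targets of type I and type II interferon. Ifitm3 (fragilis) marks epiblast cells at the onset of germ cell competence in the mouse embryo and is raised there by BMP4. Ifitm1 (fragilis 2) and Ifitm3 stay on in migrating primordial germ cells, while mice that lack the whole cluster still form germ cells. Interferon acts on its targets through the interferon-stimulated response element, which proteins of the IRF family bind, and through the gamma-activated site.

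The members lie within a stretch of 55934 bases on mouse chromosome 7 (GRCm38, GENCODE M21), each a protein-coding gene. Ifitm2 (ENSMUSG00000060591) spans chr7:140954837-140955987 on the minus strand, Ifitm1 (ENSMUSG00000025491) spans chr7:140967221-140969825 on the plus strand, and Ifitm3 (ENSMUSG00000025492) spans chr7:141009586-141010770 on the minus strand. The sequences just before the RefSeq starts are shown because the windows differ in their interferon elements. Whether this bears on how far the members moved was not tested. They were taken from RefSeq (GRCm38.p6), read 5′ to 3′ on the gene's own strand, and stop where the nearest exon annotated by GENCODE begins. They cover chr7:140967826-140968027 (strand +) for Ifitm1, chr7:140955988-140956211 (strand −) for Ifitm2, chr7:141010771-141010994 (strand −) for Ifitm3. The Ifitm1 window lies within the span of the gene as GENCODE gives it, outside its annotated exons, so it does not describe the sequence before the GENCODE start. Capitals mark the core of an interferon-stimulated response element, GAAANNGAAA.
Ifitm1: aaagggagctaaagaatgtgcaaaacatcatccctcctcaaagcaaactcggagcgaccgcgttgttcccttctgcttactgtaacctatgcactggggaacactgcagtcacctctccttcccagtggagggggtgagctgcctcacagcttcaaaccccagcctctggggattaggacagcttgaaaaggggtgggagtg
Ifitm2: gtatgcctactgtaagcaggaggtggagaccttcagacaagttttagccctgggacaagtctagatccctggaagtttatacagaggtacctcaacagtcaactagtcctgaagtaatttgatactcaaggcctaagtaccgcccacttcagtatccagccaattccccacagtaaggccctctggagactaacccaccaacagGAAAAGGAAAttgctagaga
Ifitm3: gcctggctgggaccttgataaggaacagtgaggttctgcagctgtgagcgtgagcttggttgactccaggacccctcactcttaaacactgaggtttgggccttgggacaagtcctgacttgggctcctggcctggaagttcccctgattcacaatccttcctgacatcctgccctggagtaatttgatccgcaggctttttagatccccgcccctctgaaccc

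In the window from 250 bases before to 50 bases after the RefSeq start, searched on both strands, this core had 0 matches in Ifitm1, 1 in Ifitm2 and 2 in Ifitm3. The match in Ifitm2 ran from position -46 to -37. Those of Ifitm3 lay after the start, at positions 3 to 12 and 20 to 29, inside the annotated first exon and therefore outside the stretch printed above. The 27 bases that hold both, at chr7:141010716-141010742 on the minus strand, are shown with the cores in capitals.
Ifitm3 stretch: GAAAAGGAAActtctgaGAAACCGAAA

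Of 32817 RefSeq windows of the same length, 3.43% held the core and 0.222% held it 2 or more times. The gamma-activated site TTCNNNGAA, present in 8.29% of windows, was found in Ifitm3 alone among the members, at positions 14 to 22, where it overlaps the second core. The ESRRB motif TCAAGGTCA, present in 0.424% of windows, was found in none of the 3 windows. The longest run that Ifitm2 and Ifitm3 share in these windows was 13 bases, CAGGAAAAGGAAA, which holds a core. The other pairs share 8 bases at most. These are letter matches and say nothing of what is bound there, and RefSeq lists a single start per member although GENCODE annotates 3 transcripts for Ifitm1.

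The coding sequences are 82.1% identical between Ifitm1 and Ifitm2, 82.1% between Ifitm1 and Ifitm3, and 80.9% between Ifitm2 and Ifitm3. Reads of 50 bases could nonetheless tell them apart for most of their length, since 1.8%, 3.3% and 5.56% of the 50-base windows of the Ifitm1, Ifitm2 and Ifitm3 transcripts occur in another member. Ifitm2 is the least certain of them: 48.5% of its windows occur in some other annotated gene, mostly in Gm45717, a gene model that overlaps it on the same strand and is not among the counted genes. How the authors' counting treated such reads is not given in the sources used here.

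Library totals ran from 3032965 to 5286330 counts, and the members had between 50 and 1846 counts in a library. Esrrb was measured at 161, 165 and 90.4 CPM (its counts scaled to a common library total) in KO lines A5, B1 and A2 at day 3, against 625, 591 and 613 CPM in WT. At day 5 it had 148, 204 and 129 CPM in KO, against 597, 606 and 574 CPM in WT. In EpiLC it had 6.82 and 4.57 CPM in KO A5 and B1 but 38.6 CPM in the library labelled KO A2, against 32.2, 26.9 and 19.8 CPM in WT, so that library goes against its label. The same library had 7363 CPM of 12 summed fibroblast and mesenchyme markers, against 603 to 651 CPM in the WT EpiLC libraries. It had 1344 CPM of 10 summed trophoblast markers, against 58.0 to 63.1 CPM in these WT libraries. KO A5 and B1, at 213 and 96.2 CPM, were above WT in this sum too. Its sum of 9 formative epiblast markers was 1826 CPM, against 5249 to 5364 CPM in WT EpiLC, and 3773 and 4343 CPM in KO A5 and B1. KO results in EpiLC are therefore given with and without line A2 where this changes them.

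All 3 genes were higher in PGCLC at day 3 than in EpiLC, in both genotypes. Ifitm1 had 288, 228 and 281 CPM in KO A5, B1 and A2 at day 3, against 23.04, 12.7 and 23.1 CPM in KO EpiLC. In WT it had 221, 238 and 211 CPM at day 3, against 44.3, 33.3 and 33.1 CPM in EpiLC. No library of one stage came near the other, and the increase was 13.5-fold in KO (log2 fold change 3.76 ± 0.18 SE, edgeR quasi-likelihood adjusted p = 3.38e-09) and 5.82-fold in WT (2.54 ± 0.17, adjusted p = 1.63e-08). Ranked by p in the KO step, Ifitm1 stood in place 1 of 12856 tested genes, and in the WT step in place 51.

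Ifitm3 had 257, 223 and 205 CPM in KO A5, B1 and A2 at day 3, against 42.8, 36.0 and 80.2 CPM in KO EpiLC. In WT it had 175, 155 and 150 CPM at day 3, against 42.0, 37.4 and 35.1 CPM in EpiLC. The stages did not overlap in either genotype, although the library labelled KO A2 was the highest EpiLC library. The increase was 4.29-fold in KO (2.10 ± 0.22, edgeR adjusted p = 2.86e-06) and 4.03-fold in WT (2.01 ± 0.22, adjusted p = 2.11e-06).

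Ifitm2 moved least. It had 193, 184 and 181 CPM in KO at day 3, against 96.6, 82.7 and 81.3 CPM in KO EpiLC, and 214, 220 and 211 CPM in WT at day 3, against 110, 115 and 118 CPM in WT EpiLC. The stages were again apart, by 2.15-fold in KO (1.11 ± 0.10, edgeR adjusted p = 1.03e-06) and 1.81-fold in WT (0.86 ± 0.10, adjusted p = 3.71e-06). Thus 3 of 3 members rose and 0 fell in each genotype. Of all 12856 genes, 20.6% were called higher and 21.4% lower in the KO step, and 29% higher and 28.5% lower in the WT step, so a call was common in both steps. EpiLC were unsorted and PGCLC sorted, so stage and sort cannot be told apart. In bulk RNA, more cells of a type and more RNA per cell cannot be told apart either.

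**Figure D1:**
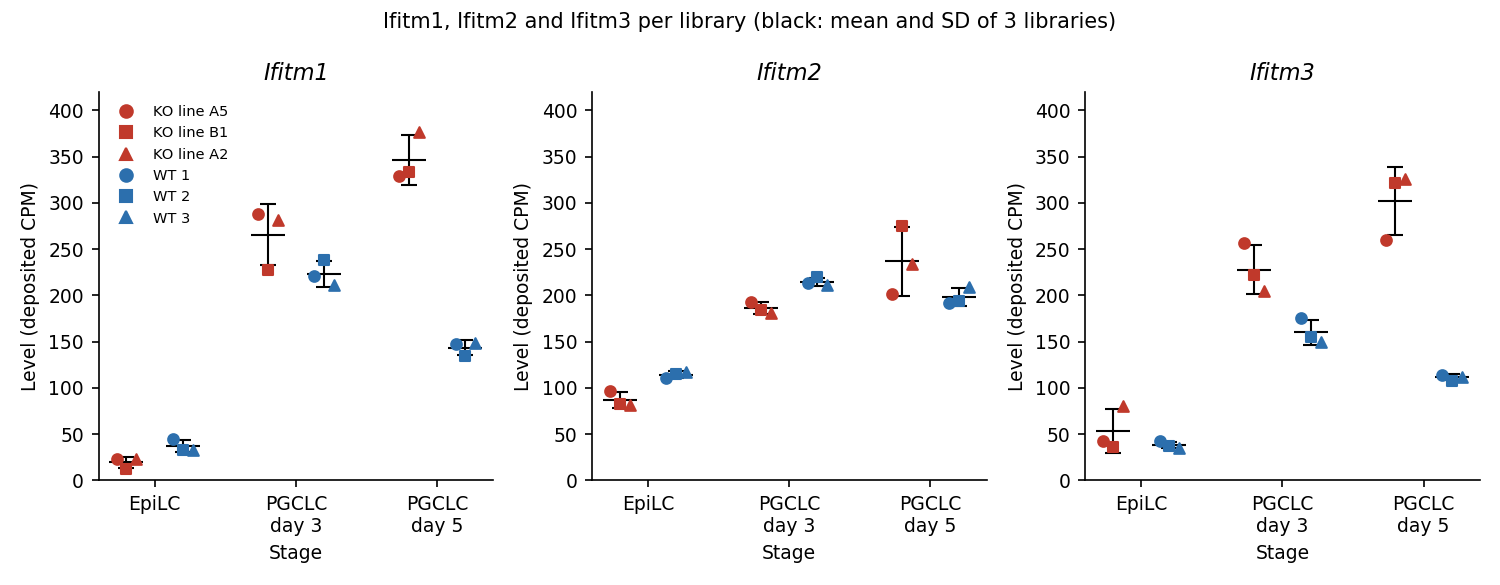
Deposited CPM of Ifitm1, Ifitm2 and Ifitm3 in each of the 18 libraries at EpiLC, PGCLC day 3 and PGCLC day 5, with KO libraries left of WT libraries at each stage and black bars at the group mean and SD. The 3 KO libraries of Ifitm1 and of Ifitm3 sit above the 3 WT libraries at day 5, while those of Ifitm2 overlap WT there.

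In EpiLC, Ifitm1 and Ifitm2 were lower in KO than in WT. Ifitm1 averaged 19.6 ± 6.0 CPM in KO EpiLC and 36.9 ± 6.41 CPM in WT EpiLC (SD, n = 3 each), and every KO library lay below every WT library. It was 1.94-fold lower in KO (-0.95 ± 0.19, 95% interval -1.35 to -0.56, edgeR adjusted p = 0.0105). Ifitm2 averaged 86.9 ± 8.46 CPM in KO EpiLC and 114 ± 3.67 CPM in WT EpiLC, again without overlap, and was 1.36-fold lower (-0.45 ± 0.10, edgeR adjusted p = 0.0174). Among all genes, 4.15% were called lower and 6.93% higher in this comparison. The share of all genes whose libraries did not overlap between groups was not counted, for stages or for genotypes. A single KO library lay above all 3 WT libraries for 35.7% to 40.6% of all genes at day 3 and day 5. Both calls are lost when only the EpiLC libraries are fitted (adjusted p = 0.18 for Ifitm1 and 0.151 for Ifitm2), that of Ifitm1 is also lost without WT library 1 (-0.81, adjusted p = 0.0525), and that of Ifitm2 without any single WT library (0.0525 to 0.0651).

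Ifitm3 was not called in EpiLC, at 53.0 ± 23.8 CPM in KO and 38.2 ± 3.53 CPM in WT (0.44 ± 0.23, interval -0.04 to 0.91, edgeR adjusted p = 0.209). Its KO libraries A5 and B1, at 42.8 and 36.0 CPM, lay among the WT values of 35.1 to 42.0 CPM or just above them, and the library labelled KO A2 stood apart at 80.2 CPM. Without A2 the difference was -0.02, and without B1 it was 0.65 (adjusted p = 0.0407), so the EpiLC value of Ifitm3 rests on a single library. The high fibroblast and trophoblast marker sums given above belong to that same library, and their part in its Ifitm3 level was not tested.

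At day 3 no member was called between the genotypes. Ifitm1 averaged 266 ± 32.9 CPM in KO and 223 ± 13.9 CPM in WT (0.26 ± 0.15, interval -0.06 to 0.59, edgeR adjusted p = 0.311), and the KO library of line B1 fell within the WT range. Ifitm2 averaged 186 ± 6.41 CPM in KO and 215 ± 4.40 CPM in WT, a small difference downward without overlap (-0.19 ± 0.10, interval -0.40 to 0.02, adjusted p = 0.237). Ifitm3 averaged 228 ± 26.2 CPM in KO and 160 ± 13.4 CPM in WT. Its 3 KO libraries all lay above the WT libraries (0.52 ± 0.21, interval 0.09 to 0.96, edgeR adjusted p = 0.118). It was called when only the day 3 libraries were fitted (adjusted p = 0.0148) and when line A2 was left out (5.29e-05). The count was 0 of 3 higher and 0 of 3 lower with edgeR, DESeq2 and limma, and 1 higher at an unadjusted p under 0.05. The background was 5% of genes called higher and 5.18% lower. An unadjusted p under 0.05, in either direction, was found for 3218 of 12856 genes.

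At day 5, Ifitm1 and Ifitm3 were higher in KO PGCLC than in WT PGCLC, and Ifitm2 was not called. Ifitm1 had 329, 333 and 377 CPM in KO A5, B1 and A2, against 148, 134 and 148 CPM in WT. The lowest KO library was thus well above the highest WT library, and the increase was 2.42-fold (1.27 ± 0.16, interval 0.94 to 1.61, edgeR adjusted p = 4.88e-05). Ifitm3 had 260, 321 and 326 CPM in KO, against 114, 108 and 112 CPM in WT. The groups were as far apart, with a 2.72-fold increase (1.44 ± 0.21, interval 1.0 to 1.88, edgeR adjusted p = 0.000219).

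Ifitm2 had 202, 276 and 234 CPM in KO at day 5, against 191, 194 and 209 CPM in WT. Line A5 lay inside the WT range and lines B1 and A2 above it (0.26 ± 0.10, interval 0.05 to 0.47, edgeR adjusted p = 0.0803). The difference was called without the A5 library (0.37, adjusted p = 0.00928) and without line A2 (0.25, adjusted p = 0.0426). With all libraries, 2 of 3 members were called higher and 0 lower with edgeR, DESeq2 and limma, and 3 were higher at an unadjusted p under 0.05. Of all genes, 9.83% were called higher and 7.62% lower. An unadjusted p under 0.05, in either direction, was found for 4013 of 12856 genes. Ifitm1 and Ifitm3 stood in places 108 and 188 by p, and in places 661 and 542 by log2 fold change from the highest.

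**Figure D2:**
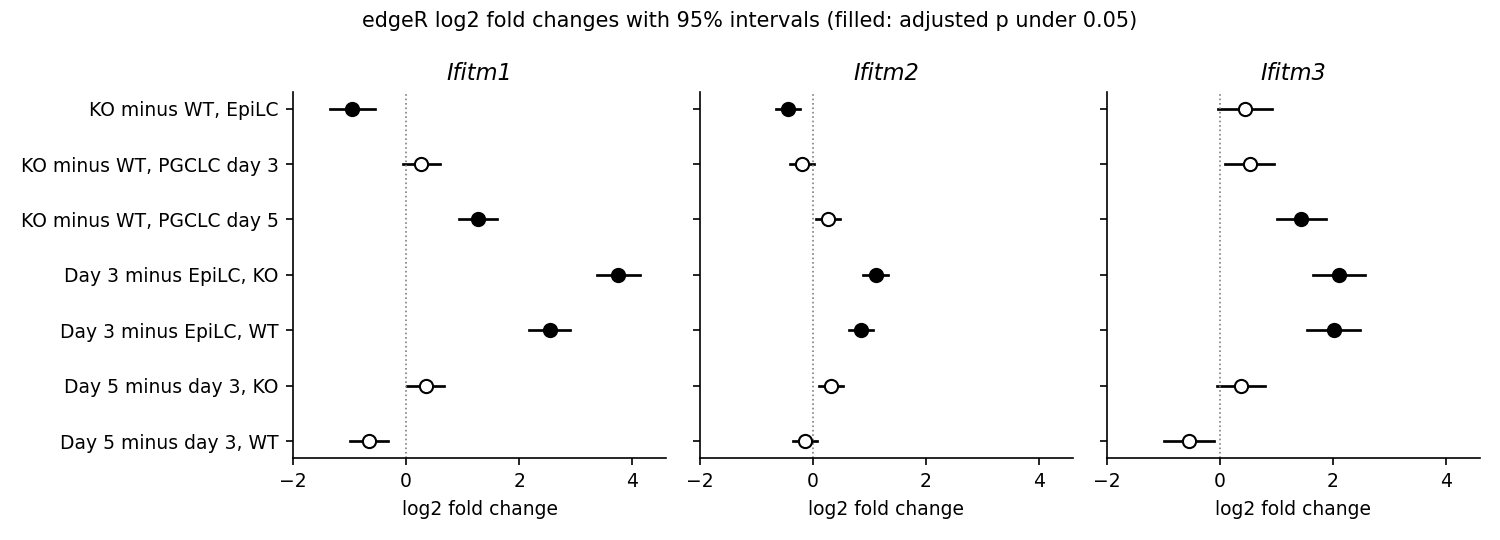
Log2 fold change of Ifitm1, Ifitm2 and Ifitm3, KO minus WT, at each stage, with 95% intervals and filled points for adjusted p under 0.05 (edgeR). Ifitm1 runs from -0.95 in EpiLC through 0.26 at day 3 to 1.27 at day 5.

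Between day 3 and day 5 the members' levels leaned upward in KO and downward in WT, and no step was called in the main fit. In KO the 3 members had day 5 minus day 3 log2 differences of 0.35 ± 0.15 for Ifitm1, 0.32 ± 0.10 for Ifitm2 and 0.37 ± 0.20 for Ifitm3, none of them called (edgeR adjusted p 0.373, 0.194 and 0.498). In WT the differences were -0.66 ± 0.16, -0.14 ± 0.10 and -0.54 ± 0.21 in the same order (adjusted p 0.0545, 0.593 and 0.228). For Ifitm1 and Ifitm3 in WT, each day 5 library lay below each day 3 library, and how many of all genes did so was not counted. The Ifitm1 difference in WT passed the threshold with DESeq2 (-0.65, adjusted p = 0.00271) and with edgeR without line A2 (-0.66, adjusted p = 0.00137). It also passed with a replicate block (-0.66, edgeR adjusted p = 0.0159), although the WT numbers themselves do not pair the libraries. With the WT day 3 and day 5 groups fitted alone, all 3 members were called (-0.66, -0.14 and -0.54). Ifitm3 was also called without line A2 (-0.54). Fitted alone or without A2, far more genes were called in general than in the main fit, as given in the closing section.

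In the KO step, edgeR called 0 members higher and 0 lower, as did DESeq2 and limma, with 2 higher at an unadjusted p under 0.05. In the WT step edgeR called 0 higher and 0 lower, limma likewise, DESeq2 called 1 lower, and 2 were lower at an unadjusted p under 0.05. Calls were rare in general: 0.366% of genes were called higher and 0.187% lower in KO, and 0.288% higher and 0.482% lower in WT. An unadjusted p under 0.05, in either direction, was found for 1583 of 12856 genes in KO and 1791 in WT.

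The interaction terms compare the steps of the 2 genotypes. From EpiLC to day 3, the step of Ifitm1 was larger in KO than in WT by 1.22 ± 0.24 on the log2 scale (interval 0.70 to 1.73, edgeR adjusted p = 0.00924) from a lower level in KO EpiLC. The steps of Ifitm2 and Ifitm3 differed by 0.25 ± 0.14 and 0.09 ± 0.31 (adjusted p 0.301 and 0.901). Thus 1 member was called higher and 0 lower, against 2.96% and 3.63% of all genes. Without line A2 the Ifitm3 term was 0.62 (adjusted p = 0.0119), and without the EpiLC library of line B1 it was -0.13, so its direction rests on single libraries.

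From day 3 to day 5 the terms were 1.01 ± 0.22 for Ifitm1, 0.45 ± 0.14 for Ifitm2 and 0.92 ± 0.29 for Ifitm3, all upward in KO relative to WT. None passed (edgeR adjusted p 0.313, 0.929 and 0.940), in a comparison in which edgeR called 0% of genes higher and 0% lower, limma called 0 and DESeq2 called 12. At an unadjusted p under 0.05 there were 561 genes, among them all 3 members, and Ifitm1 stood in place 10 of 12856 by p. DESeq2 called Ifitm1 (1.002, adjusted p = 0.00492). Without line A2, edgeR called Ifitm1 (0.97, adjusted p = 0.0231) and Ifitm3 (0.78, adjusted p = 0.00536).

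Set in order of their level, the 6 groups ran differently for each gene. For Ifitm1 the order from the top was KO day 5, KO day 3, WT day 3, WT day 5, WT EpiLC and KO EpiLC, and the day 3 groups of KO and WT were the sole neighbours whose libraries overlapped. For Ifitm3 it was KO day 5, KO day 3, WT day 3, WT day 5, KO EpiLC and WT EpiLC, with overlap between the EpiLC groups alone. For Ifitm2 the PGCLC groups lay close together, with KO day 5 overlapping WT day 3, and WT day 5 overlapping KO day 3.

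The summed level of the 3 members was highest at day 5 in KO and at day 3 in WT. In KO it averaged 160 ± 26.7 CPM in EpiLC, 680 ± 52.9 CPM at day 3 and 886 ± 82.6 CPM at day 5 (SD, n = 3 each). In WT it averaged 189 ± 6.35 CPM in EpiLC, 598 ± 23.1 CPM at day 3 and 453 ± 17.0 CPM at day 5. At day 5 the KO libraries ran from 790 to 937 CPM and the WT libraries from 436 to 470 CPM, without overlap.

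The make-up of this sum differed between groups as well. Ifitm2 gave 55.5% of it in KO EpiLC and 60.4% in WT EpiLC, but 27.5% in KO and 36.0% in WT at day 3, and 26.7% in KO and 43.7% in WT at day 5. Ifitm1 gave 12.1% in KO EpiLC and 19.4% in WT EpiLC, and 39.2% in KO and 31.7% in WT at day 5. Ifitm3 gave 34.1% in KO and 24.6% in WT at day 5. On average Ifitm2 thus gave most of the sum in EpiLC of both genotypes and the largest share in WT at day 5, while in KO at both PGCLC stages it gave the smallest.

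**Figure D3:**
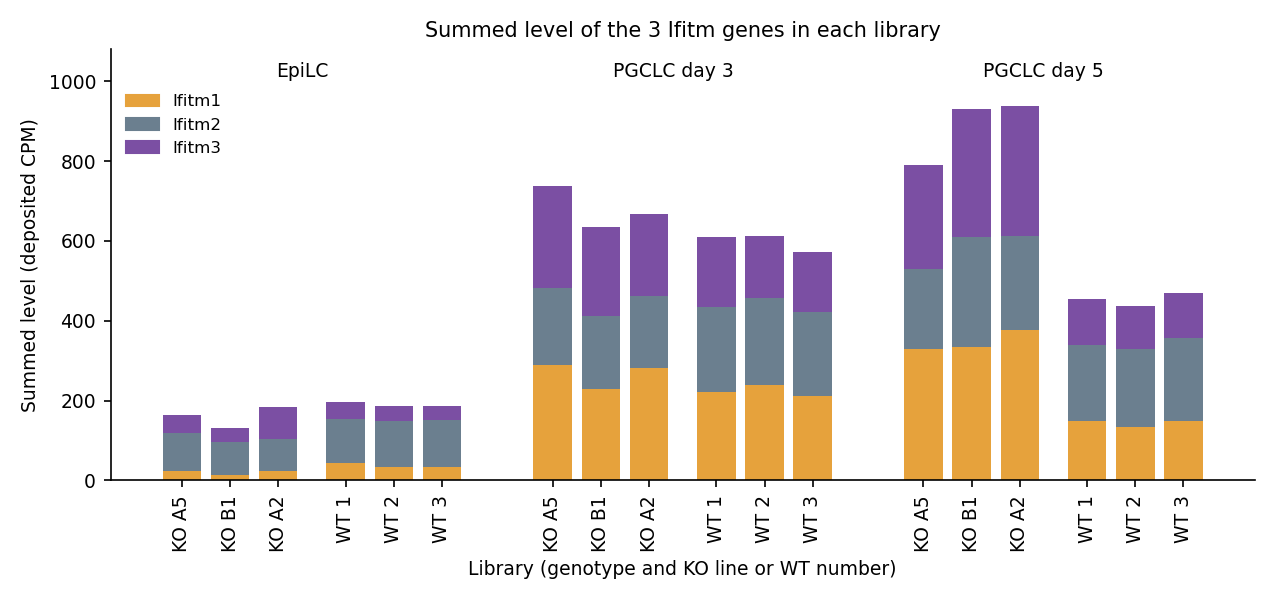
Summed CPM of Ifitm1, Ifitm2 and Ifitm3 in each library, stacked by gene, with KO libraries left of WT libraries at each stage. KO libraries reach 790 to 937 CPM at day 5, and WT libraries 436 to 470 CPM.

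Per kilobase of annotated exon, which lets the genes be compared with each other, Ifitm2 was the highest of the 3 in WT at every stage, at 175 ± 5.61 CPM per kb in EpiLC, 328 ± 6.71 at day 3 and 303 ± 14.8 at day 5. In WT EpiLC, Ifitm3 followed at 56.3 ± 5.20 and Ifitm1 at 33.7 ± 5.86 CPM per kb. In KO PGCLC the order was different: Ifitm3 had 446 ± 54.1, Ifitm2 362 ± 56.7 and Ifitm1 317 ± 24.6 CPM per kb at day 5. The day 5 KO ranges of Ifitm3 (384 to 480) and Ifitm2 (308 to 421) overlapped, as did those of Ifitm2 and Ifitm1 (300 to 345). The exon length joins all annotated transcripts, of which Ifitm1 has 3 and the others a single one, so the level of Ifitm1 per kb is the least certain.

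Ratios between members within a library do not depend on library size. The log2 ratio of Ifitm1 to Ifitm2 was 0.56 ± 0.25 in KO and -0.47 ± 0.08 in WT at day 5, a difference of 1.02 (exact permutation test, two-sided p = 0.1, n = 3 each). That p is the smallest that 3 against 3 libraries allow, and it became 0.15 when adjusted over the 9 ratios compared. The ratio of Ifitm3 to Ifitm2 was 0.36 ± 0.13 in KO and -0.83 ± 0.08 in WT at day 5, a difference of 1.19 (p = 0.1 by the same exact test), and it was already 0.29 ± 0.12 in KO and -0.43 ± 0.12 in WT at day 3. The ratio of Ifitm1 to Ifitm3 was 0.20 ± 0.14 in KO and 0.37 ± 0.04 in WT at day 5, a difference of -0.17 (exact permutation p = 0.2), and in EpiLC it was -1.40 ± 0.46 in KO and -0.06 ± 0.12 in WT (exact permutation p = 0.1). At day 5 the 2 ratios to Ifitm2 lay apart between the genotypes, and the ratio of Ifitm1 to Ifitm3 overlapped.

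Each KO line gave a single library per stage. At day 5, log2 ratios to the WT mean were 1.17, 1.22 and 1.42 for Ifitm1 in A5, B1 and A2, and 1.20, 1.53 and 1.57 for Ifitm3. Those of Ifitm2 were 0.00, 0.48 and 0.26. At day 3 they were 0.38, 0.04 and 0.35 for Ifitm1 and 0.70, 0.48 and 0.38 for Ifitm3. The day 5 increase of Ifitm1 and Ifitm3 was therefore present in each line, largest in A2.

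Other interferon targets were higher in KO too, but at day 5 their order over lines was not that of Ifitm1 and Ifitm3. Of a list of 41 interferon-stimulated genes without the Ifitm genes, 34 were tested. At day 5, 19 were higher and 1 lower in KO (edgeR), against 9.83% and 7.62% of all genes. The median log2 fold change of the list was 1.59, against 0.01 over all genes. Gbp2, a guanylate-binding protein of cell-autonomous immunity, had 45.0, 20.7 and 8.38 CPM in KO A5, B1 and A2, against 1.22, 1.22 and 1.42 CPM in WT (4.22 ± 0.74, edgeR adjusted p = 0.00115). Irgm1, an immunity-related GTPase, had 58.8, 48.3 and 22.9 CPM in KO, against 4.69, 3.45 and 2.12 CPM in WT (3.62 ± 0.44, adjusted p = 4.9e-05). In both genes every KO library was above WT, but line A2 was the lowest of them. Gbp3 (4.47 ± 0.82) and Psmb8, a subunit of the immunoproteasome (3.85 ± 0.63), were the other large increases, and Trim25 (-0.60 ± 0.16, edgeR adjusted p = 0.0172), which tags the RNA sensor RIG-I with ubiquitin, was the 1 gene that fell.

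At day 3, 4 of the 34 were higher and 0 lower with edgeR (8 and 0 with DESeq2, 2 and 1 with limma, 15 and 0 at an unadjusted p under 0.05). They were Irgm1 (1.83 ± 0.39, edgeR adjusted p = 0.00737), Ifi35, the immunoproteasome subunit Psmb9, and the RNA-editing enzyme Adar. Without line A2 the counts higher were 21 of 34 at day 3 and 27 of 34 at day 5, against 10.6% and 15.7% of 12989 tested genes. In EpiLC 5 were higher and 0 lower (7 and 0 with DESeq2, 4 and 0 with limma, 14 and 1 at an unadjusted p under 0.05), among them B2m (1.27 ± 0.36), and 10 were higher without A2, against 6.59% of genes. Leaving out A2 raised the count at all 3 stages. With all lines, 5% of all genes were called higher at day 3 and 6.93% in EpiLC. An unadjusted p under 0.05, in either direction, was found for 3218 of 12856 genes at day 3 and 3762 in EpiLC.

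Line by line, 30, 23 and 8 of the 34 targets were above all 3 WT libraries at day 3 in A5, B1 and A2, against 35.7%, 38.3% and 39.3% of all genes. At day 5 the counts were 31, 29 and 24, against 40.6%, 39.4% and 40.1%. The median log2 ratio of the targets to WT was 1.03, 0.79 and -0.18 at day 3, and 1.72, 1.28 and 0.48 at day 5, in the same order. Line A2 thus had the smallest median increase of interferon targets at day 5, and at day 3 its median was below WT. Its Ifitm1 and Ifitm3 were the highest of the 3 lines at day 5. For Ifitm3 the lead was slight, at 1.568 in A2 and 1.527 in B1. At day 3 Ifitm3, at 0.696, 0.485 and 0.379 in A5, B1 and A2, followed the order of the target medians. With a single library per line and stage, these differences between lines have no test.

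**Figure D4:**
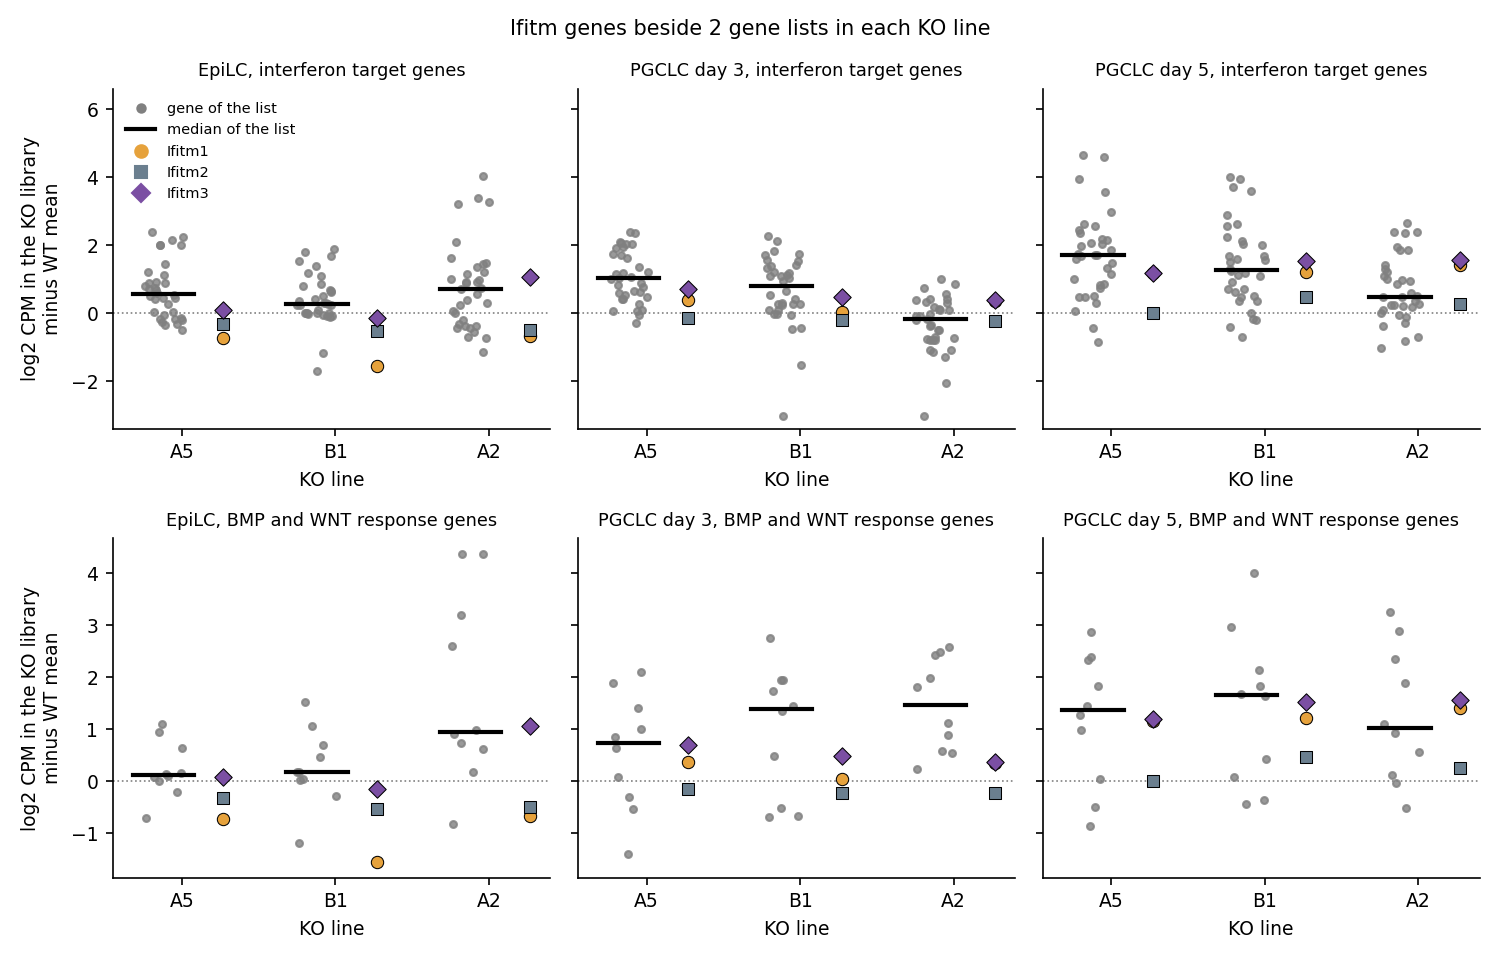
Log2 ratio to the WT mean in each KO line at EpiLC, PGCLC day 3 and day 5 for interferon targets and for BMP and WNT response genes (small points, 1 gene each, with the median as a bar) beside Ifitm1, Ifitm2 and Ifitm3. At day 5 the median of the interferon targets is 1.72, 1.28 and 0.48 in A5, B1 and A2, while Ifitm1 is at 1.17, 1.22 and 1.42.

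Of 21 genes of interferon signalling, 18 were tested. At day 5, 3 were higher and 0 lower in KO, against 9.83% and 7.62% of all genes. The count lower was 0 also with DESeq2 and limma, and at an unadjusted p under 0.05. Among those higher were the transcription factors Irf1 and Irf3 (0.47 ± 0.14). Irf1 had 256, 265 and 156 CPM in KO at day 5, against 52.8, 50.1 and 51.2 CPM in WT (2.13 ± 0.27, edgeR adjusted p = 7.29e-05). It was higher at day 3 as well, at 214, 224 and 108 CPM in KO, against 60.9, 63.2 and 61.0 CPM in WT (1.57 ± 0.27, adjusted p = 0.00166). Line A2 was the lowest of the 3 lines for Irf1 and the highest for Ifitm1 at day 5. Each line gave a single library there, and this difference between lines was not tested. Without line A2, 4 of the 18 were higher and 1, Ifnar2, lower (-1.0), against 15.7% and 14.2% of all genes. With 18 genes, these counts lie near the shares of all genes. The interferon genes Ifnb1 and Ifng had 0 counts in all 18 libraries.

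Between EpiLC and day 3, where the members rose, 15 of the 34 interferon targets rose and 2 fell in KO, and 13 rose and 5 fell in WT. Over all genes 20.6% rose and 21.4% fell in KO, and 29% rose and 28.5% fell in WT. Of the 18 signalling genes, 8 rose and 0 fell in KO with edgeR, DESeq2 and limma, and 13 rose and 1 fell in WT. From day 3 to day 5 in WT, where Ifitm1 and Ifitm3 came out lower without a call in the main fit, 2 targets fell, among them Rtp4. In this step 0 rose with any of the tools. A total of 18 targets were lower at an unadjusted p under 0.05, and the median of the list was -0.62. Of all genes, 0.482% were called lower by edgeR in this step, and the median was 0.001. An unadjusted p under 0.05, in either direction, was found for 1791 of 12856 genes.

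Several BMP and WNT target genes, which report the signals that induce germ cell fate, were also higher in KO PGCLC. Smad7 (-0.33), Smad6 (-0.26) and Msx2 (-0.13) were not called at day 5. Of 10 tested genes of a list of 11, 7 were higher and 0 lower at day 5 (the same with DESeq2 and limma), with a median of 1.56, and 5 were higher at day 3. Of all genes, 9.83% were called higher at day 5 and 5% at day 3. Id1, an inhibitor of differentiation and direct BMP target, had 232, 135 and 158 CPM in KO at day 5, against 46.5, 42.0 and 40.8 CPM in WT (2.02 ± 0.30, edgeR adjusted p = 0.000307). Lef1, a transcription factor of the WNT pathway, had 34.2, 74.0 and 43.1 CPM in KO at day 5, against 4.08, 3.86 and 4.72 CPM in WT (3.58 ± 0.31, adjusted p = 2.12e-06). All 3 lines were well above WT for both genes. At day 5, 7, 8 and 8 of the 10 genes were above all WT libraries in A5, B1 and A2, against 40.6%, 39.4% and 40.1% of all genes. The median ratio of the 10 genes was 1.36, 1.66 and 1.02. In EpiLC 3 were higher, against 6.93% of all genes. Without line A2 edgeR called 7 higher and 1 lower at day 5, 5 higher and 3 lower at day 3, and 0 higher and 1 lower in EpiLC. Those lower were Smad7 (-0.63 at day 5 and -0.40 at day 3) and Smad6 (-0.60), inhibitors within the BMP pathway, with Msx2 (-1.09) at day 3 and Id3 (-0.99) in EpiLC, all named after their values were seen. Of all genes, 14.2%, 10.3% and 7.18% were called lower without A2 at day 5, at day 3 and in EpiLC. The shares called higher were 15.7%, 10.6% and 6.59%.

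The other early germ cell genes moved in both directions between the genotypes. Of 15, at day 5 Nanos3, Lin28a and Prdm1 were higher in KO and Tcl1 and Dazl lower, with a median of 0.09. Nanos3, an RNA-binding protein that keeps germ cells alive, had 9.34, 19.9 and 11.2 CPM in KO at day 5, against 3.06, 2.84 and 2.83 CPM in WT (2.20 ± 0.37, edgeR adjusted p = 0.00111). Prdm1, the repressor that starts germ cell fate, was higher by 1.24 ± 0.26 (adjusted p = 0.00406), and Tcl1, a cofactor of the kinase AKT, was lower (-1.41 ± 0.24, adjusted p = 0.000779). At day 3, 2 were higher and 1 lower. Of all genes, 9.83% were called higher and 7.62% lower at day 5, and 5% and 5.18% at day 3. From EpiLC to day 3, 10 rose and 1 fell in KO, and 11 rose and 1 fell in WT. Of all genes, 20.6% rose and 21.4% fell in KO, and 29% rose and 28.5% fell in WT. Dppa3 and Dppa5a, whose reporters set the sort, are among the 15 counted. Any change of theirs in this step cannot be told apart from the sort.

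Of 12 genes whose products modify or bind Ifitm proteins, Zdhhc20, an enzyme that attaches palmitate to them, was higher in KO at day 3 (0.69 ± 0.19, edgeR adjusted p = 0.0325) and at day 5 (0.65 ± 0.19, adjusted p = 0.0285). It had 146, 153 and 122 CPM in KO at day 5, against 97.8, 87.5 and 83.3 CPM in WT. Setd7, which methylates them, rose by 0.83 ± 0.20 at day 5, and the ubiquitin ligase Nedd4 by 0.43 ± 0.14. Vapa, a membrane contact protein, fell by 0.28 on the log2 scale. In all, 3 of the 12 were higher and 1 lower at day 5, against 9.83% and 7.62% of all genes. At day 3, 1 was higher and 0 lower, against 5% and 5.18%. Without line A2, 3 were higher and 3 lower at day 5 (median 0.018), and 1 higher and 2 lower at day 3 (median -0.031).

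Marker sums of other cell types were read beside the day 5 increase. The sum of 12 mesoderm markers was 139 to 160 CPM in KO and 90.8 to 118 CPM in WT at day 5. The fibroblast and mesenchyme sum was 1207 and 1354 CPM in KO A5 and B1 and 2360 CPM in A2, against 1203 to 1270 CPM in WT. The sum of 10 naive pluripotency markers was 1517 to 2181 CPM in KO and 2731 to 2846 CPM in WT. Esrrb, the knocked-out gene, is among these 10, so its own lower level in KO adds to that difference. The sum of 10 blood and endothelial markers was 423 and 427 CPM in KO A5 and B1 and 251 CPM in A2, against 303 to 327 CPM in WT. Of these 10, Ptprc, Hbb-bh1, Hba-x and Lyz2 were at 0 in all KO and WT libraries at day 5. The trophoblast sum was 100 to 154 CPM in KO and 77.9 to 113 CPM in WT, and the sum of 10 endoderm markers 11.8 to 19.0 CPM in KO and 10.2 to 12.7 CPM in WT. The formative epiblast sum was 673 to 819 CPM in KO and 527 to 560 CPM in WT. Lef1, of the BMP and WNT list, is among these markers too, so its higher level in KO adds to that difference. The mesoderm, naive (Esrrb included) and formative sums did not overlap between the genotypes, and the part of these sums in the Ifitm values was not tested.

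The remaining family members were hardly measured. Ifitm5, known from bone, reached 1.97 CPM at most, Ifitm7 1.98 CPM, Ifitm10 0.33 CPM and Ifitm6 0.236 CPM, and 0 of the 4 passed the filter on low counts. A difference between the genotypes in these 4 genes was not detectable at this depth.

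Within 100 kb on either side of the cluster, 9 further genes were tested. Between KO and WT at day 5, 1 of them, the interleukin receptor family member Sigirr, was higher (0.47 ± 0.16, edgeR adjusted p = 0.0486) and 0 were lower, though limma called 0 higher. In EpiLC Sigirr was again the 1 gene called by edgeR (0.70 ± 0.20, adjusted p = 0.0349). At day 3 edgeR called 0 higher and 0 lower, limma likewise, DESeq2 called 1 lower, and 1 was lower at an unadjusted p under 0.05. With 9 genes, these counts between KO and WT lie near the shares of all genes given above for each stage. In the step to day 3, 5 of 9 rose and 0 fell in KO with all 3 tools, and 6 rose and 2 fell in WT with edgeR. Of all genes, edgeR called 20.6% higher and 21.4% lower in the KO step. In the WT step it called 29% higher and 28.5% lower. Sigirr rose by 2.11 ± 0.19 in WT, as far as Ifitm3, and Athl1, a glycoside hydrolase gene, by 1.77 ± 0.20.

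**Figure D5:**
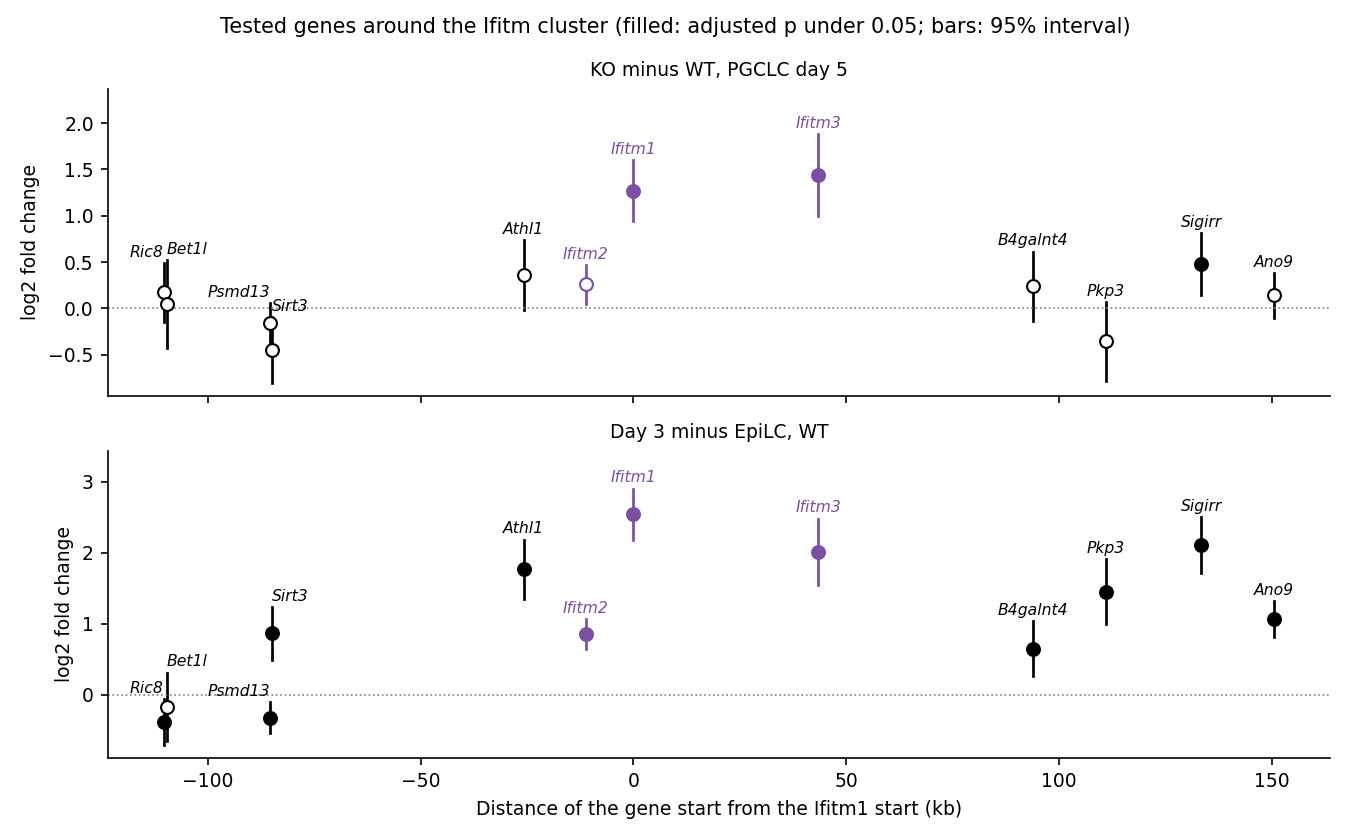
Log2 fold changes of the 3 members and the 9 tested neighbours by distance of the gene start from that of Ifitm1 in kb, for KO minus WT at day 5 (top) and day 3 minus EpiLC in WT (bottom), with 95% intervals and filled points for adjusted p under 0.05. Ifitm1 and Ifitm3 stand above all 9 neighbours at day 5, while in the lower panel Sigirr (2.11) reaches the level of Ifitm3 (2.01).

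The genes whose pattern over the 18 libraries was most like that of each member were found by the root-mean-square difference of centred log2 CPM among 10834 genes. Predicted gene models (Gm and a number, or Rik) keep their place in the order but are not named. The nearest named genes for Ifitm1, in places 1, 3, 4, 5 and 7, were Porcn (0.442), Elf3 (0.482), Klf2 (0.483), Pip5k1b (0.510) and Tspan1 (0.544), against a median of 1.56 over all genes. Ifitm3 was in place 27 for Ifitm1 (0.652) and Ifitm2 in place 519 (1.06). Porcn averaged 73.8 ± 36.0 CPM in KO and 24.9 ± 2.31 CPM in WT at day 5. Those for Ifitm3, in places 1, 3, 4, 5 and 6, were A4galt (0.261), Znfx1 (0.306), Glis3 (0.321), Klf8 (0.322) and Nlrp9b (0.333), against a median of 1.13. Znfx1, a sensor of viral RNA, averaged 137 ± 17.3 CPM in KO and 63.7 ± 7.67 CPM in WT at day 5.

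Nearest to Ifitm2 were Pfkl (0.117), Mxi1 (0.133), Kdm5b (0.172), Ptdss2 (0.178) and Mtf2 (0.179), against a median of 0.608. Ifitm3 was in place 7276 for Ifitm2 and Ifitm1 in place 9871, while Ifitm2 was in place 547 for Ifitm3 (0.714), since the measure counts a difference in the size of a change as well as in its direction. Pfkl, a subunit of phosphofructokinase, averaged 753 ± 19.0 CPM in KO and 663 ± 18.5 CPM in WT at day 5. Without line A2 the nearest genes were Slc17a9 for Ifitm1, Pfkl for Ifitm2 and A4galt for Ifitm3. The libraries share groups and depth, so likeness describes these libraries and carries no test.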

How the data were processed

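RNA-seq counts per Ensembl gene were deposited for each of 18 libraries, and the deposited CPM table matched them after scaling by library total (largest difference under 1e-06). Trim Galore 0.4.3.1 trimmed the reads, and both mm10 and GRCm38.p4 are listed as builds, per the submitters' processing notes. Aligner, counter, annotation and strandedness are not given in the sources. Rows without a gene ID (56 of 25965, 0.0559% to 0.0828% of counts) were left out. Late libraries are called d6 in descriptions and 5 days elsewhere. Line A2 is called KO2 in titles.

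The deposited counts were fitted with edgeR 4.0.16 (R 4.3.3): filterByExpr (12856 genes), TMM, robust quasi-likelihood, a mean for each of 6 groups (12 residual degrees of freedom) and Benjamini-Hochberg adjustment within each of 9 comparisons, called under 0.05. Members and lists were chosen with earlier results of these data known. Besides members, up to 4 called genes of a list with the largest changes per comparison, genes within 100 kb, and the 5 nearest patterns among genes averaging at least 5 CPM, predicted gene models passed over, were named. Trim25, Dazl, Ifnar2, and BMP genes called lower without line A2 were named after their values were seen. A gene of the interferon lists is not reported here. The fit was tested on simulated data. Libraries that share a KO line deviated together (9 of 9 pairs above 0.1, correlation 0.11 to 0.588) and WT numbers did not (-0.048 to 0.066). Line names are nested in genotype, so no block enters KO against WT. Alternatives were RLE size factors, no low-count filter, DESeq2 1.42.0, limma 3.58.1 on log2(CPM + 1), a replicate block, the compared groups alone, and leaving out each library or line A2.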

Additional observations from a re-analysis of the deposited data

Results flagged for a closer look

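The step of Ifitm1 from EpiLC to day 3 differed between the genotypes, by 1.22 ± 0.24 on the log2 scale (edgeR interaction term, adjusted p = 0.00924). It was 3.76 in KO, where each of 3 lines showed it, and 2.54 in WT. The term kept its direction and its call under every alternative fitted, and ran from 0.98 to 1.37 when libraries were left out singly.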

How the results depend on the processing

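Of 378 refits of the 27 member results, 350 kept direction and side of the threshold, 23 changed the call and 5 changed sign. The sign changes were all in uncalled values of Ifitm3: KO against WT in EpiLC without A2 (-0.024), and the earlier interaction, which ran from -0.13 to 0.55 without single libraries. Of the 11 called results, 9 held in every alternative run. Ifitm1 and Ifitm2 in EpiLC were not called with the compared groups alone (-0.95 and -0.44), Ifitm1 also not without WT library 1, and Ifitm2 also not without any single WT library. With single libraries left out they ran from -1.11 to -0.72 and from -0.52 to -0.41, Ifitm3 in EpiLC from -0.023 to 0.65, and Ifitm2 at day 5 from 0.14 to 0.37. Without line A2, results newly called were Ifitm3 (0.59) and Ifitm2 (0.25) in KO against WT at day 3 and day 5, Ifitm1 (-0.66) and Ifitm3 (-0.54) from day 3 to day 5 in WT, and the interactions of Ifitm3 with both steps (0.62, then 0.78) and of Ifitm1 with the later step (0.97). With the compared groups alone they were Ifitm3 at day 3 (0.52), Ifitm1, Ifitm2 and Ifitm3 from day 3 to day 5 in WT (-0.66, -0.14 and -0.54) and the later Ifitm1 interaction (1.01). DESeq2 called Ifitm1 in the later WT step (-0.65) and interaction (1.002). The replicate block called Ifitm1 in the later WT step (-0.66) and changed no other member's call. For these changes the cause was not tested.

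Genes called overall moved further. KO against WT gave 1424 genes in EpiLC, 0 with these groups alone and 181 to 2473 without single libraries. At day 3 it gave 1309, 2716 without A2 and 621 to 1463 without single libraries. At day 5 it gave 2244, 3887 without A2 and 1303 to 2189 without single libraries. Day 3 against EpiLC in KO gave 5394, and 2161 with these groups alone. Day 5 against day 3 in WT gave 99, 325 with DESeq2, 387 with the block, 3678 with these groups alone, 2016 without A2 and 10 to 18 without single libraries. In KO it gave 71, 46 unfiltered, 173 with DESeq2, 216 with the block, 0 with these groups alone, 873 without A2 and 9 to 74 without single libraries. The earlier interaction gave 847, 1277 with DESeq2, 1457 with the block, 456 with these groups alone, 1912 without A2 and 361 to 1527 without single libraries. The later gave 0, 12 with DESeq2, 5 with these groups alone and 85 without A2. The list counts without A2 were added after their values were seen. Depth limits the 4 other Ifitm genes, not the members, and intervals cover counting error and the spread of these libraries.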
